A study of Mus musculus with 10 samples.

Results

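The region described here is the Ifng locus of the mouse, on chromosome 10 (mm10), in ChIP-seq data for RNA polymerase II. It is a window of 205000 bp, from 101046 bp before the Ifng transcription start to 103954 bp after it. Every peak and every peak summit that the authors called there was taken, whatever gene it was assigned to. That gave 82 summits of 117973 in the 6 libraries and 6 promoter peaks of 60704, 1 in each library. Summits within 500 bp of each other were joined, which gave 33 sites of 38310 in the genome.

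The cells were primary T helper 1 (Th1) cells of Balb/c DO11.10 mice, a strain that carries a transgenic T cell receptor. They had been primed from CD4+ T cells with anti-CD3, anti-CD28, IL-12 and a blocking antibody to IL-4, then expanded in an analogue of IL-2 and kept without it for the last day. There were 3 groups of 2 libraries, from cells that were not restimulated (NR) and from cells restimulated for 30 min or for 2 h. The stimulus was soluble anti-CD28 (2.5 µg/ml) with anti-CD3 bound to the plate (5 µg/ml), and the antibody against polymerase II was 8WG16. Whether replicates are separate animals or cultures is not said in the labels. The p-values therefore rest on the spread within pairs of libraries, which may be technical. A change in a whole culture also cannot be told apart from a change in the share of its cells that responded.

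Interferon gamma is the defining cytokine of Th1 cells, and it activates macrophages and raises antigen presentation. Its gene is opened during priming by the T-box factor T-bet and by STAT4, which acts downstream of IL-12, and the T cell receptor then switches transcription on through NFAT, AP-1 and NF-κB. The gene is flanked by conserved non-coding sequences (CNS) that act as enhancers or boundaries and are named by their distance in kb from the transcription start. RNA polymerase II is found at active enhancers as well as at promoters and along transcribed genes. It also continues past the polyadenylation site before it is released.

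Ifng (gene ID 15978) lies on the + strand at 118441046 to 118445894, a length of 4849 bp. RefSeq (GRCm38.p6) also places in the region the pseudogenes Gm9046, Gm9048 and Gm9049 and the distal end of Ifngas1, a long non-coding RNA gene on the − strand whose own start lies outside it. The promoter sequence is shown because every library had its promoter peak across it. These are the 250 bases before the Ifng start (chr10:118440796-118441045, + strand, RefSeq GRCm38.p6), with the match to the TATA box in capitals:
Ifng promoter: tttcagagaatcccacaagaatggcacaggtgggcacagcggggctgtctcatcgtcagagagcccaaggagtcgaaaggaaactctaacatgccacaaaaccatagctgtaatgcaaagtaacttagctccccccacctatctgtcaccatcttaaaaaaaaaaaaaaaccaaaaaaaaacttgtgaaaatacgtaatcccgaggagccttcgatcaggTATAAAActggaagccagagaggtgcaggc

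The motifs below were searched on both strands of these 250 bases and of the same stretch of 27025 promoters. The TATA box letters TATAAAA matched at -30, counted to the first base of the match, and were present in 5.3% of promoters. TGACG, part of the site bound by CREB and ATF proteins, matched at -197 and was present in 17.9% of promoters. GGAAA, the core bound by NFAT proteins, matched at -172 and was present in 55.6%. These matches did not overlap. The AP-1 site (TGACTCA or TGAGTCA, 4.4% of promoters) and the T-box site AGGTGTGA (1.1%) had no match in this window.

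Polymerase II covered the Ifng start in all 6 libraries, NR cells included. The promoter peak measured 8006 and 3459 bp in the NR libraries (replicates 1 and 2), 9191 and 10957 bp at 30 min, and 10545 and 12175 bp at 2 h. All 4 stimulated libraries were thus above both NR libraries, and NR replicate 2 was the shortest by far. The means were 5732.5 ± 3220 bp in the NR libraries, 10074 ± 1250 bp at 30 min and 11360 ± 1150 bp at 2 h (SD, n = 2). The share of all tested genes with both stimulated libraries above both NR libraries was 11.5% at 30 min and 52.3% at 2 h, so this order was common, above all at 2 h. The 2 h libraries overlapped those at 30 min.

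**Figure D1:**
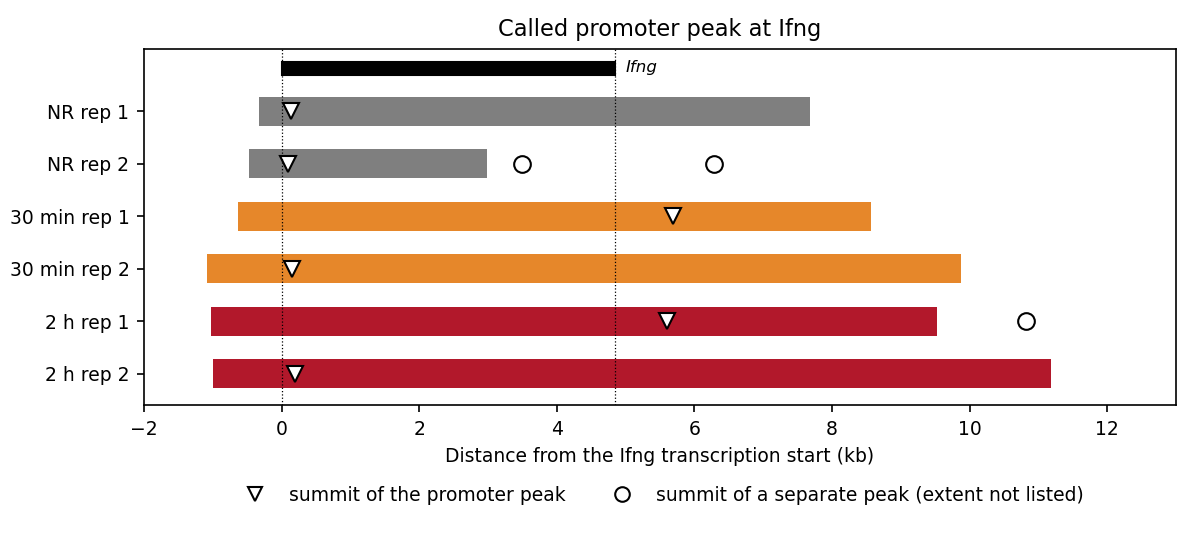
Extent of the called Ifng promoter peak in each of the 6 libraries (bars), against distance from the Ifng start in kb, with the gene as a black bar and its ends as dotted lines. Triangles mark the promoter peak's own summit and circles the summits of separate peaks. The bar of NR replicate 2 ends inside the gene, and the other 5 bars run past the gene end by 2835 to 6332 bp.

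In each stimulated library the peak extended farther on both sides of the gene than in either NR library. The share of all genes with this order of edges was not computed. For called length, the same order was seen in 11.5% of genes at 30 min and 52.3% at 2 h. Before the start the Ifng peak reached 322 and 478 bp in the NR libraries, 630 and 1080 bp at 30 min, and 1024 and 994 bp at 2 h. On the far side it ran past the annotated gene end by 2835 bp in NR replicate 1, by 3712 and 5028 bp at 30 min and by 4672 and 6332 bp at 2 h. In NR replicate 2 it stopped inside the gene, at -1868 bp from the gene end.

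In NR replicate 2 the covered stretch was not absent beyond that point but broken into separate peaks. Its summits lay 86, 3487 and 6284 bp after the start, with −log10 q of 125.89, 7.53 and 56.16 in that library's list. The last of these 3 lies past the gene end. Only the first is a promoter peak with a listed extent, so the called length of 3459 bp leaves out whatever the other peaks covered.

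The position of the summit inside the promoter peak also differed between libraries. It lay 136 and 86 bp after the start in NR cells, 147 bp after it in 30 min replicate 2 and 189 bp after it in 2 h replicate 2. In 30 min replicate 1 and 2 h replicate 1 it lay 5695 and 5608 bp after the start, just beyond the gene end. The highest point of the stimulated peak was thus near the start in the stimulated replicates 2 and past the gene end in the stimulated replicates 1. The lists give a single summit per peak and do not say how high the other end was.

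Within each library's own list the Ifng peak ranked high by width, and its ranks by q-value and fold varied more. By q-value it was 585th of 9360 promoter peaks in NR replicate 1, 2108th of 10383 in NR replicate 2, 33rd of 9074 and 173rd of 10680 at 30 min, and 4th of 10549 and 33rd of 10658 at 2 h. Its fold enrichment over local background, as the authors' tables give it, was 19.9 and 16.7 in the NR libraries, 42.9 and 36.9 at 30 min, and 46.4 and 37.8 at 2 h. By fold it ranked 955th and 3907th in the NR libraries, 79th and 1684th at 30 min, and 105th and 769th at 2 h. These ranks and folds describe the peak inside lists of unequal length and depth and do not measure a change. By width it was among the widest 0.32% and 2.21% of promoter peaks in NR cells, 0.43% and 1.07% at 30 min, and 0.62% and 0.67% at 2 h.

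A promoter peak that ran past the gene end was listed for few of the genes at least as long as Ifng, most of which would need a longer peak to do so. Among those whose start was covered, the share with one was 0.12% and 0.14% in the NR libraries, 0.36% and 0.75% at 30 min, and 0.52% and 0.59% at 2 h. Among the 8270 genes of this kind, 22 had one in all 4 stimulated libraries (0.266%), and Ifng was among them. In 7 genes it was seen in all 6 libraries. In 11 genes (0.133%), Ifng included, it was seen in the 4 stimulated libraries and not in NR replicate 2. The length limit and the patterns of the 22 and the 11 genes follow the values of Ifng itself. Its place among both was therefore fixed in advance and tests nothing.

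The difference in called length was tested with limma across 9908 genes. On the log2(bp + 100) scale, with each library centred on its median gene, Ifng was 0.76 higher at 30 min than in NR cells (SE 0.545, adjusted p = 0.751). At 2 h it was 0.61 higher than in NR cells (SE 0.545, adjusted p = 0.66). Between 2 h and 30 min the value was -0.14 (SE 0.545, adjusted p = 0.969). None of the 3 comparisons passed the threshold of 0.05. On this centred scale Ifng stood at 3.10 and 1.58 in the NR libraries, 3.36 and 2.83 at 30 min, and 2.97 and 2.94 at 2 h. After centring, 30 min replicate 2 and both 2 h libraries were thus below NR replicate 1, and all 4 stimulated libraries were above NR replicate 2. At that threshold limma called 23 genes higher (0.232%) and 1 lower (0.0101%) at 30 min, and 37 higher (0.373%) and 6 lower (0.0606%) at 2 h, both against NR cells. For 2 h against 30 min it called 0 (0.0%), with 513 genes (5.18%) at an unadjusted p under 0.05.

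The size of this difference rested on NR replicate 2, whose domain was broken. Without it the value was -0.0024 at 30 min and -0.15 at 2 h. Without NR replicate 1 it was 1.51 and 1.37, and without 30 min replicate 1 the value at 30 min was 0.49 and that for 2 h against 30 min was 0.13. Without 30 min replicate 2 the value for 2 h against 30 min was -0.41. Counting the DNA in promoter peaks by position over the gene and 1000 bp on each side gave 0.36 at 30 min and 0.08 at 2 h. That count stops 1000 bp past the gene end, and NR replicate 1 already ran 2835 bp past it. It therefore cannot show growth farther out, and it leaves out the separate peaks of NR replicate 2. Quantile normalisation gave 0.24 and 0.27, and leaving out the centring gave 0.92 and 1.09. The median log2 length that the centring removes was 9.89 and 10.22 in the NR libraries, 9.82 and 10.61 at 30 min, and 10.41 and 10.65 at 2 h.

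Beyond the gene, more summits were listed in the stimulated libraries on both sides. The region held 7 and 9 summits in NR cells, 11 and 17 at 30 min, and 19 and 19 at 2 h. The 3 groups did not overlap, and the 2 h libraries had the same number. The means were 8.0 ± 1.41, 14 ± 4.24 and 19.0 ± 0.0 (SD, n = 2). Both stimulated libraries were above both NR libraries in 7.29% of the genome's tiles of the same length at 30 min and in 21.2% at 2 h, and 2 h was above 30 min in 6.51%.

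**Figure D2:**
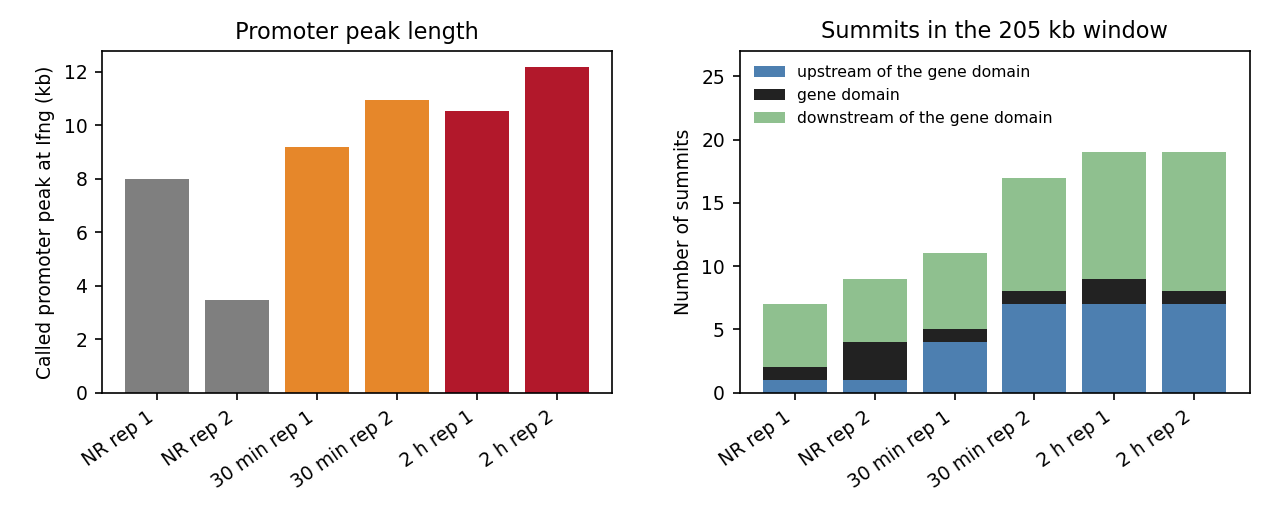
Left, length of the called Ifng promoter peak in kb in each of the 6 libraries. Right, number of summits in the whole region in each library, split into those upstream of the gene domain, inside it and downstream of it. Each bar is a library, with 7 and 9 summits in NR cells, 11 and 17 at 30 min, and 19 and 19 at 2 h.

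The gene domain was set as the union of the 6 promoter peaks, 12261 bp from 1080 bp before the start to 11180 bp after it. Outside it lay 73 of the 82 summits and 28 of the 33 sites, called distal here. Upstream of the domain there was 1 summit in each NR library, 4 and 7 at 30 min, and 7 and 7 at 2 h. Downstream there were 5 in each NR library, 6 and 9 at 30 min, and 10 and 11 at 2 h. The distal summits of the NR libraries thus lay mainly on the downstream side, and the stimulated libraries listed more on both sides. The share of the genome with such an order of distal summits, or of summits on 1 side of a gene, was not computed. Distal summits lay between -54.43 and 66.63 kb at 2 h and between -22.61 and 45.84 kb in the NR libraries.

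The number of summits was tested with limma across 5362 tiles of 205000 bp, laid so that 1 tile is the region itself. On the log2(summits + 1) scale the region was 0.76 higher at 30 min than in NR cells (SE 0.195, adjusted p = 0.615), 65th of the tiles by p-value. At 2 h it was 1.16 higher than in NR cells (SE 0.195, adjusted p = 0.177), 27th by p-value. The 2 h libraries stood 0.40 above those at 30 min (SE 0.195, adjusted p = 0.966), and without 30 min replicate 1 the value was 0.15. No comparison passed the threshold. Limma called 0 tiles (0.0%) at 30 min, 1 tile higher (0.0186%) and 0 lower (0.0%) at 2 h, and 0 (0.0%) between 2 h and 30 min, with 344 (6.42%), 673 (12.6%) and 182 tiles (3.39%) at an unadjusted p under 0.05. A larger value than that of the region was seen in 5.59% of tiles at 30 min and in 3.62% at 2 h.

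**Figure D3:**
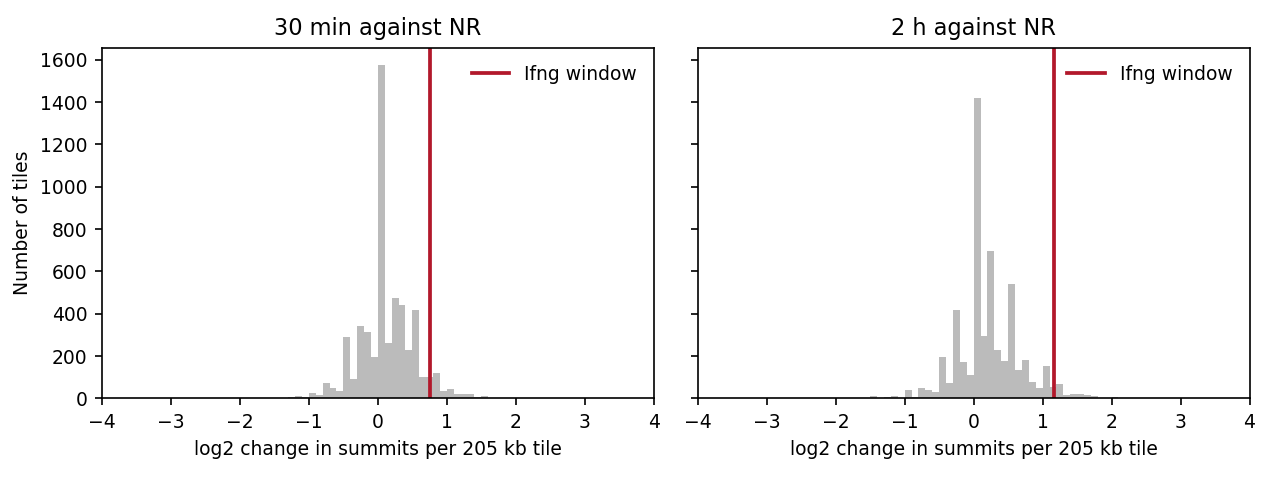
Distribution of the log2 change in the number of summits over 5362 tiles of 205000 bp, at 30 min against NR (left) and at 2 h against NR (right), with the number of tiles on the vertical axis. The red line marks the Ifng region, at 0.76 and 1.16, in the upper tail of both distributions.

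List length and depth differed between the libraries, and apart from lists cut to equal length their part in these counts was not tested. The lists held 19888 and 17627 summits in NR cells, 15330 and 23299 at 30 min, and 20086 and 21743 at 2 h. The lowest background coverage, inferred from the deposited pileup and fold, was 0.659 and 5.92 fragments per base in NR cells, 1.57 and 4.67 at 30 min, and 2.48 and 5.55 at 2 h. 30 min replicate 1 had the shortest list and held 11 summits in the region, and NR replicate 2 was the deepest library and held 9. NR replicate 1, the shallowest library, held the fewest, 7. Within groups the deeper library held more in NR cells (9 against 7) and at 30 min (17 against 11), and at 2 h both held 19. With every list reduced to its 15330 strongest summits, the region was 0.73 higher at 30 min and 0.70 higher at 2 h, both against NR cells, and 2 h against 30 min was -0.03.

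Site by site, a gain was counted where both libraries of a group had a summit and neither library of the other had one. At 30 min against NR cells 3 of the 25 sites present in either group were gained (12%), against 1.76% of sites in the genome. They lay at -36.3, -5.5 and +38.6 kb, and 0 sites were lost (genome 1.29%). At 2 h against NR cells 7 of 28 sites were gained (25.0%), against 6.92% in the genome. These lay at -36.3, -27.3, -5.5, +18, +53.5, +54.4 and +66.4 kb. The single site lost at 2 h (3.6%, genome 2.15%) lay at +29.5 kb, beside a site that kept its summit. The genome shares are over sites of every kind, while 28 of the 33 sites of the region are distal. Promoter peaks made up from 45.84% (30 min replicate 2) to 59.19% (30 min replicate 1) of a library's summits. A genome share over distal sites alone was not computed, so the shares of the region and the genome are not like for like.

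Between 2 h and 30 min, 2 of 31 sites were gained (6.5%, genome 2.53%) and 1 was lost (3.2%, genome 0.695%). The gained sites were those at +53.5 and +66.4 kb and the lost site was at +38.6 kb. With 2 libraries against 2 there are 3 ways to split them, so no permutation of a site's values can give a p under 0.333, and no test was run per site. Leaving out a library loosens the rule, since fewer libraries must share a summit, so counts over the whole genome rise with it. At 30 min, 10 sites were gained without 30 min replicate 1 (genome 23.6%) and 7 without 30 min replicate 2 (genome 8.15%). At 2 h against NR cells the gain was 11 without 2 h replicate 1 (genome 21.1%) and 13 without 2 h replicate 2 (genome 17.5%), and the loss was 4 without NR replicate 1 (genome 7.65%) and 2 without 2 h replicate 2 (genome 4.44%). For 2 h against 30 min the gain was 7 without 30 min replicate 2 (genome 15.4%) and 7 without 2 h replicate 2 (genome 11.1%). The loss was 3 of 27 sites without 30 min replicate 1 (11.1%, genome 15.1%) and 5 of 29 without 30 min replicate 2 (17.2%, genome 7.51%).

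**Figure D4:**
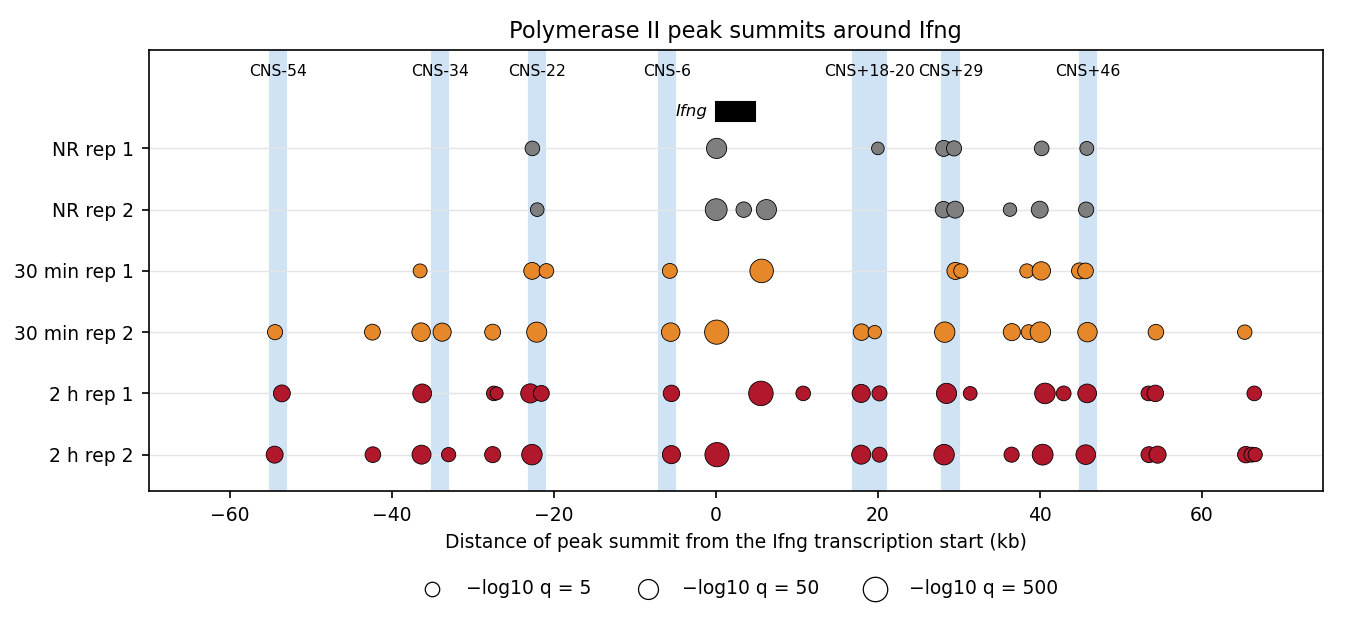
Summits of polymerase II peaks in the 6 libraries against distance from the Ifng start in kb. Each point is a summit, its size grows with −log10 q in its own list, blue bands mark 1 kb around the listed conserved elements and the black bar is the gene. The stimulated libraries have summits at -36.3 and -5.5 kb where neither NR library has one, and all 6 libraries have summits near +40.4 and +45.8 kb.

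The site nearest to the gene on the upstream side, at -5.5 kb, had a summit in all 4 stimulated libraries and in neither NR library. Its −log10 q was 6.0 and 26.65 in the 30 min lists and 11.14 and 22.32 in the 2 h lists. The 4 summits lay within 201 bp of each other and within 1 kb of CNS-6, an enhancer known to bind T-bet and NFAT in Th1 cells. The only other site with this pattern lay at -36.3 kb, with −log10 q of 4.03 and 26.65 in the 30 min lists and 30.66 and 32.87 in the 2 h lists. Its 4 summits spanned 256 bp, and it was not within 1 kb of a listed element. The share of the genome's sites seen in all 4 stimulated libraries and in neither NR library was not computed.

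CNS-22, an enhancer that binds T-bet and is needed for Ifng expression in T cells, had a summit within 1 kb in all 6 libraries. The strongest had −log10 q of 5.37 and 3.65 in the NR lists, 13.22 and 54.59 in the 30 min lists, and 34.98 and 64.81 in the 2 h lists. It was the only upstream position with a summit in NR cells. The position within the element was not fixed, since joining at 500 bp split it into sites at -22.7, -22 and -21.5 kb, of which none was seen in every library. Joined at 1000 bp it was a single site of 1998 bp seen in all 6.

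Farther upstream, CNS-34 and CNS-54 were reached in fewer libraries. CNS-54 had a summit in 30 min replicate 2 and in both 2 h libraries, with −log10 q of 6.6, 13.22 and 13.81. CNS-34 had a summit in 30 min replicate 2 alone, with −log10 q of 22.74, and 2 h replicate 2 had a summit of 4.69 at -32.9 kb, just outside the 1 kb limit. The site at -27.3 kb, near no listed element, had summits in 30 min replicate 2 and in both 2 h libraries, with −log10 q of 9.06 in the first, 5.29 and 2.74 in 2 h replicate 1 and 9.78 in 2 h replicate 2. At -42.3 kb there were summits in 30 min replicate 2 and 2 h replicate 2 only, with −log10 q of 8.81 and 8.09. None of these positions had a summit in 30 min replicate 1, the library with the shortest list.

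On the downstream side, 2 sites had a summit in all 6 libraries. The site at +40.4 kb had −log10 q of 5.46 and 13.49 in the NR lists, 24.79 and 66.07 in the 30 min lists, and 68.71 and 76.32 in the 2 h lists. It was the strongest distal summit of the region in 5 of 6 libraries, although no listed element lies within 1 kb of it. NR replicate 1 was the exception, with its strongest distal summit of 9.25 at 28.17 kb. The site at +45.8 kb, within 1 kb of CNS+46, had −log10 q of 4.01 and 6.85 in the NR lists, 8.12 and 40.35 in the 30 min lists, and 29.16 and 43.52 in the 2 h lists.

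CNS+29, a conserved element of the downstream side, had a summit within 1 kb in all 6 libraries. Both NR libraries had 2 summits there, near +28.3 and +29.5 kb, with −log10 q of 9.25 and 6.56 in replicate 1 and 10.93 and 13.35 in replicate 2. Among the stimulated libraries the summit at +28.3 kb was listed in 30 min replicate 2 and both 2 h libraries, with −log10 q of 61.94, 56.29 and 65.78. 30 min replicate 1 had instead the summit at +29.5 kb, with −log10 q of 14.66. The loss counted at 2 h was thus that of the summit at +29.5 kb, while the summit at +28.3 kb stayed listed. It was not counted when sites were joined at 1000 bp, since both positions then fall in a single site. Whether the peak at +29.5 kb was lost or merged with its neighbour was not tested.

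At CNS+18-20, an enhancer that responds to T-bet, NR replicate 1 had a single summit at 20.05 kb with −log10 q of 2.4, and NR replicate 2 had none. 30 min replicate 2 and both 2 h libraries had 2 summits there. Those at +18 kb had −log10 q of 11.32, 22.69 and 33.32, and those at +20 kb had 3.34, 6.32 and 6.18. 30 min replicate 1 had none.

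The sites farthest downstream were seen only in stimulated libraries. At +53.5 kb both 2 h libraries had a summit, with −log10 q of 5.6 and 9.13, and at +54.4 kb 30 min replicate 2 and both 2 h libraries had one, with 7.89, 11.56 and 14.51. The sites at +65.4 and +66.4 kb lie inside Ifngas1. The first had −log10 q of 4.97 in 30 min replicate 2 and 11.21 in 2 h replicate 2. The second had 5.55 in 2 h replicate 1 and 6.1 and 4.44 in 2 h replicate 2, and none at 30 min.

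Between CNS+29 and the +40.4 kb site the listed summits were less regular. The site at +38.6 kb was seen in both 30 min libraries and in no other, with −log10 q of 4.36 and 6.14. The site at +36.5 kb was seen in replicate 2 of every group, with −log10 q of 3.36 in NR cells, 14.74 at 30 min and 6.54 at 2 h. Of all 33 sites, 12 were seen in a single library, 22 in at least 1 stimulated library and no NR library, and 2 in NR cells only. The sites of NR cells only lie inside the gene domain and belong to the broken peak of NR replicate 2. Joined at 1000 bp there were 22 sites, of which 4 were seen in a single library and 13 in stimulated libraries only. With 4 stimulated libraries and 2 of NR cells, a site has more chances to be seen in stimulated libraries only. The share of the genome's sites with these patterns was not computed.

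Many distal summits, pooled over the 6 libraries, lay at the 7 listed conserved elements. Of the 73 distal summits, 36 (49.3%) lay within 1 kb of an element, while those stretches made up 8.3% of the distal bases (16007 of 192740 bp). A position listed in several libraries counts more than once here, so the 73 are not independent. CNS-22, CNS+29 and CNS+46 gave 7, 8 and 6 of the 36. Elements with a summit in all 6 libraries were CNS-22, CNS+29 and CNS+46. CNS-6 and CNS+18-20 had one in 4 libraries each, CNS-54 in 3 and CNS-34 in 1. The element positions come from their names, which round to the nearest kb, so a summit near the 1 kb limit may be counted either way.

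Windows with the same offsets around other cytokine genes differed in how their summits were spread over the libraries. Around Il22, a cytokine gene of the same chromosome, there were 1 and 1 summits in NR cells, 1 and 1 at 30 min, and 2 and 3 at 2 h. Around Il4, the defining cytokine gene of Th2 cells, there were 2 and 8 in NR cells, 4 and 12 at 30 min, and 13 and 15 at 2 h. Around Csf2, which encodes GM-CSF, there were 1 and 1, then 0 and 13, and then 2 and 7. Around Tnf, a gene-dense stretch, there were 21 and 23, then 25 and 33, and then 27 and 28, so higher counts in stimulated libraries were also listed elsewhere. More windows were counted, and those named here are examples picked without a stated rule. Some changed less between the groups. The Il2 window held 4 and 4, then 4 and 3, and then 5 and 6, and the Il5 window 10 and 8, then 10 and 12, and then 14 and 13.

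Genes that act with Ifng were followed by the called length of their promoter peaks, with the same limma fit. Of 28 listed regulators of Ifng, 25 could be tested and 0 passed in either direction at 30 min or 2 h against NR cells. Their median log2 change was 0.32 at 30 min and 0.14 at 2 h, against -0.04 and -0.03 over all genes. For Tbx21, which encodes T-bet, the called length was 2094 and 2374 bp in the NR libraries, 7036 and 8714 bp at 30 min, and 7579 and 4265 bp at 2 h (adjusted p = 0.34 at 30 min and 0.446 at 2 h against NR). The 3 regulators with the largest change at 2 h were Fosl2, an AP-1 subunit (1.32, adjusted p = 0.213), Nfkb1, an NF-κB subunit (1.04, adjusted p = 0.253), and Ets1, a factor that cooperates with T-bet (1.03, adjusted p = 0.549). At 2 h all 3 had both libraries above both NR libraries, and 52.3% of genes did.

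Of the 14 receptor genes whose signals induce Ifng, all were tested and 0 passed, with medians of 0.45 at 30 min and 0.40 at 2 h against NR cells. The 3 with the largest change at 2 h were Cd28, the co-stimulatory receptor engaged here (0.91, adjusted p = 0.377), Il2ra, the inducible chain of the IL-2 receptor (0.90, adjusted p = 0.617), and Il12rb1, a chain of the IL-12 receptor (0.87, adjusted p = 0.368). Of 20 genes of the interferon gamma signalling pathway, 17 were tested and 0 passed, with medians of 0.67 and 0.20. The 3 with the largest change at 2 h were Ifngr2, Jak2 and Irf8. Ifngr2, which encodes a chain of the interferon gamma receptor, had 572 and 1158 bp at 2 h and no peak in NR cells (adjusted p = 0.324). Jak2, the kinase bound to that chain, had 5242 and 6334 bp at 2 h against 793 and 1550 bp in NR cells (1.8, adjusted p = 0.0515). Irf8, an interferon-induced transcription factor, stood at 1.38 (adjusted p = 0.373).

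Among 15 cytokine genes and neighbours of Ifng, 10 were tested, and 2 rose at both times against NR cells, beside 0.232% of all genes at 30 min and 0.373% at 2 h. These were the chemokine genes Ccl4 and Ccl3. Ccl4 had no peak in NR cells, 4861 and 5276 bp at 30 min, and 5205 and 5682 bp at 2 h (adjusted p = 0.00356 at 30 min and 0.00441 at 2 h). Ccl3 had no peak in NR cells, 1283 and 3769 bp at 30 min, and 3952 and 3843 bp at 2 h (adjusted p = 0.0107 and 0.00725). A group with no peak adds no measured spread to the fit, so these p-values may be too small. Il3 had 4683 and 4995 bp at 2 h and no peak in NR cells (adjusted p = 0.0946). Csf2 had 4135 and 4436 bp at 2 h and no peak in NR cells (adjusted p = 0.246). Unlike these 4 genes, Ifng already had a peak in both NR libraries, and so did Il10, with 4484 and 4099 bp in the NR libraries, 8860 and 10704 bp at 30 min, and 9137 and 11390 bp at 2 h (adjusted p = 0.488 and 0.395 against NR).

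The genes whose called length followed Ifng most closely over the 6 libraries were named by Euclidean distance between centred log2 profiles, among 9907 other genes. The nearest was Il18r1, a chain of the IL-18 receptor, at a distance of 0.313, with 2303 and 1124 bp in the NR libraries, 2301 and 3100 bp at 30 min, and 2830 and 3317 bp at 2 h. Ubb, a polyubiquitin gene, followed at 0.344 with 6925 and 2556 bp in the NR libraries, 6915 and 7599 bp at 30 min, and 7030 and 7783 bp at 2 h. Gcnt1 (0.519), Actb (0.540) and Arf6 (0.577) came next, and the median over all genes was 1.633. All 5 shared with Ifng a lower value in NR replicate 2 than in NR replicate 1, so the likeness rests in part on that library.

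Of the genes listed as markers of Th1 cells, Cd3e, Cd4, Tbx21, Stat4, Il12rb1 and Ifng had a promoter peak in all 6 libraries. Such a peak was common, seen in 7410 of the 10419 genes with a peak in any library, so it does not identify the cells. No library had one at these genes of B cells (Cd79a, Ms4a1), myeloid cells (Lyz2, Csf1r, Itgam) or natural killer cells (Ncr1, Klrb1c), nor at Foxp3 or Cd8a. Gata3, the factor of Th2 cells, had a peak in 5 libraries and Cd8b1 in 3.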

How the data were processed

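RNA polymerase II ChIP-seq libraries of Th1 cells (3 groups of 2) were used. The 3 histone libraries and 1 input library were not analysed here. The submitters' processing notes name BWA 0.7.13, Picard 1.119, MACS2 2.1.0 and the build mm10, without roles. Peaks were called per library, per the labels. The deposited summit lists give each peak's summit and −log10 q-value. The deposited tables of promoter peaks, within 1000 bp of a transcription start, give the width, the signal (pileup coverage), the fold enrichment (a ratio over background), −log10 p and −log10 q, per the file headers. These values only described, ranked or filtered peaks within their own list.

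Read counts were not given, so called length (log2(bp + 100), 9908 of 10419 genes, peak in at least 2 libraries) and summits per tile of 205000 bp (log2(summits + 1), 5362 of 7203 tiles) were fitted with limma 3.58.1 in R 4.3.3 over all 6 libraries, and calls were made at an adjusted p under 0.05 (Benjamini-Hochberg). Libraries were centred on the median of the 7410 genes or 4379 tiles present in all 6. The + 100 understates changes of short peaks. The method was tested on simulated data. Tables were made with Python 3.11.15 and pandas 2.3.3.

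Named are Ifng, every site, the 5 genes nearest to Ifng in profile and, from each list, genes past the threshold and the 3 with the largest change at 2 h. Tbx21 (for its role) and Il10, Mdm1 and Rap1b (after their values were seen) were added by hand. The region, members and lists were chosen with earlier results of these data known. Alternatives were other pseudocounts, centring, filters, assignment, stricter or equally long lists, other joining distances, a replicate block and leaving out each library.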

Additional observations from a re-analysis of the deposited data

How the results depend on the processing

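No alternative brought the Ifng length or the summit count of the region past the threshold. Adjusted p for length ran from 0.556 to 1.0 at 30 min against NR, from 0.418 to 0.949 at 2 h against NR and from 0.774 to 1.0 for 2 h against 30 min, and for summits from 0.115 to 1.0, from 0.113 to 0.831 and from 0.467 to 1.0. Leaving out a library moved length between -0.0024 and 1.51 (30 min), -0.15 and 1.37 (2 h), and -0.41 and 0.13 (2 h against 30 min), and summits between 0.60 and 1.01, 1.00 and 1.32, and 0.15 and 0.40. Both turns against NR came without NR replicate 2. For 2 h against 30 min, length also turned without centring (0.17) and with quantile normalisation (0.03), and summits turned with lists of equal length (-0.03). The cause of these turns was not tested.

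Sites gained at 30 min numbered 3, or 1 with summits of −log10 q of at least 5. At 2 h against NR they numbered 7, or 4 with lists of equal length, and 0 in place of 1 was lost when joined within 1000 bp. For 2 h against 30 min, 2 were gained, or 0 joined within 1000 bp and 1 with lists of equal length, and 1 was lost, or 0 with stricter summits and 0 with lists of equal length. Leaving out a library gave 3 to 10 gained and 0 to 2 lost at 30 min, 7 to 13 gained and 1 to 4 lost at 2 h, and 2 to 7 gained and 1 to 5 lost between them. Fewer libraries must then share a summit, and the genome's share of gained sites moved too, to 23.6% at 30 min without 30 min replicate 1 and 21.1% at 2 h without 2 h replicate 1.

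Over these alternatives the genes called higher ran from 4 to 53 at 30 min (23 as reported), from 3 to 148 at 2 h (37 as reported) and from 0 to 181 for 2 h against 30 min (0 as reported), and those called lower from 0 to 175 (1 as reported), 0 to 41 (6 as reported) and 0 to 25 (0 as reported). Tiles called higher ran from 0 to 1069 (0 as reported), 0 to 281 (1 as reported) and 0 to 311 (0 as reported), and lower from 0 to 152, 0 to 46 and 0 to 864 (0 each as reported). The labels number replicates 1 and 2 in every group, which leaves 2 pairs per comparison. Deviations of same-numbered libraries correlated at 0.26, 0.19 and 0.31 over genes and at 0.31, 0.13 and 0.31 over tiles, all positive. Depth followed the number too, with a lowest background of 0.659 to 2.48 fragments per base in replicates 1 and 4.67 to 5.92 in replicates 2. The labels do not say whether a number marks a shared preparation, so the main fit did not pair libraries and its spread includes this difference. With a replicate block, length stood at 0.76 (adjusted p = 0.556), 0.61 (0.486) and -0.14 (0.911), and summits at 0.76 (0.600), 1.16 (0.138) and 0.40 (0.953), in the order 30 min against NR, 2 h against NR, 2 h against 30 min. Called length, not reads, is measured, and summit lists give no extent for distal peaks.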

Other observations

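The start of Ifngas1, the long non-coding RNA gene whose distal end lies in the region, sits at 118556525, which is 115.5 kb after the Ifng start and outside the region. The authors' tables assign its promoter peaks to Tmevpg1, another name of the gene. A promoter peak of 269 and 417 bp was listed there in the NR libraries and of 383 bp in 30 min replicate 2. 30 min replicate 1 and both 2 h libraries listed none. The −log10 q was 4.31 and 6.99 in the NR lists and 7.83 in the list of 30 min replicate 2. The peak at this start was thus seen in neither 2 h library and in both NR libraries, while the sites inside the body of the gene at +65.4 and +66.4 kb were seen in stimulated libraries only. Such a loss at 2 h against NR was seen for 2.15% of sites in the genome.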
